A study of Mus musculus with 8 samples.

Results

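The cohesin genes of the mouse testis were examined in RNA-seq counts from juvenile males. The members were 10 genes chosen by name out of 24651 genes in the count tables. They comprise 4 meiotic subunits (*Smc1b*, *Rec8*, *Rad21l*, *Stag3*), 5 subunits used in mitotic cells (*Smc1a*, *Smc3*, *Rad21*, *Stag1*, *Stag2*) and *Sgol2a*, a protector of cohesin that RefSeq now lists as *Sgo2a*. Whole testes were taken at postnatal day 12 from 4 wild type and 4 *Morc2b*-/- males on a mixed strain background, without sorting of cells. The mutant allele lacks exon 2 of *Morc2b*, which holds the coding region, in every cell of the body, and it descends from 1 targeted embryonic stem cell clone. The sample labels call the controls wild type, whereas the design text of the series calls them *Morc2b*+/-, and the labels were followed here. The design text calls the 4 samples of a genotype biological replicates. The p-values set the difference between the genotypes against the spread between these 8 samples. In edgeR's test the estimate of that spread also draws on the other genes tested.

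Cohesin is a ring that holds sister chromatids together. A pair of SMC proteins forms the arms of the ring, a kleisin closes it, and a STAG protein binds the kleisin. Germ cells that enter meiosis replace part of this complex: SMC1B joins SMC1A as partner of SMC3, REC8 and RAD21L join the kleisin RAD21, and STAG3 takes the place of STAG1 and STAG2. Meiotic cohesin builds the chromosome axis on which synapsis takes place, and cleavage of REC8 releases the chromosomes at the meiotic divisions. At postnatal day 12 the first wave of germ cells has reached the zygotene stage, in which synapsis begins.

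The upstream sequences of the 4 meiotic genes are shown because these genes encode the meiotic subunits. Silencing of *Smc1b* and *Stag3* in other cells is also known to depend on the repressor E2F6. The 250 bases before the annotated start of each gene were read from RefSeq on GRCm38.p6, 5′ to 3′ on the strand of the gene. Capitals mark matches on either strand to TTCCCGC (an E2F site), CACGTG (an E-box), TCTCGCGA and CCAAT.
Smc1b, chr15:85131958-85132207, minus strand: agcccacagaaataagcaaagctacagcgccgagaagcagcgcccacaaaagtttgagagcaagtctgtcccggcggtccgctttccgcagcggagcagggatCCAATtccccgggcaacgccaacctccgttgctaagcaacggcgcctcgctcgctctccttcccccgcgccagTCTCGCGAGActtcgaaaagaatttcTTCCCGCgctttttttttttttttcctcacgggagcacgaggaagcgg
Stag3, chr5:138280259-138280508, plus strand: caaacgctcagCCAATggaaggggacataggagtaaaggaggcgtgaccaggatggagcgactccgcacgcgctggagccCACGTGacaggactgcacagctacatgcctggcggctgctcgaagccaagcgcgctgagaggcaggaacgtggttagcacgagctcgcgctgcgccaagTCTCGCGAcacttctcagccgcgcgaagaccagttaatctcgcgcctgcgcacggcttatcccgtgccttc
Rec8, chr14:55617916-55618165, plus strand: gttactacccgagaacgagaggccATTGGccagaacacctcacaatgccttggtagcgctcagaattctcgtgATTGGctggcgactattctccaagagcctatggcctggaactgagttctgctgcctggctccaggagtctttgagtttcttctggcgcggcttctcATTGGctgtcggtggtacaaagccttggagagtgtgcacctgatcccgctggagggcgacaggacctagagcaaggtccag
Rad21l, chr2:151668534-151668783, minus strand: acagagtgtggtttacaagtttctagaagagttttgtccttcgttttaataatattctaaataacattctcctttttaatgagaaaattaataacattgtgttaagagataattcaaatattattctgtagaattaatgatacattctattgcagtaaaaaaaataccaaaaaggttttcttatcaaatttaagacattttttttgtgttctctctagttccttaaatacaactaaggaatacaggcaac

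The *Smc1b* and *Stag3* windows held 25 and 26 CpG dinucleotides with a GC content of 58.0% and 62.8%. *Rec8* had 10 CpG and 56.0% GC, and *Rad21l* had 1 CpG and 25.6% GC. The *Rad21l* transcript annotated by GENCODE has 1650 bases, of which 1647 are coding, so almost no untranslated sequence is annotated. Whether the *Rad21l* window lies at a start of transcription was not tested, and its values may not be those of a promoter. Mitotic genes reached the same or higher values, with 26 CpG and 64.4% GC for *Smc3* and 31 CpG and 71.2% GC for *Stag1*, while *Smc1a* had 16 CpG and 56.8% GC. The median over all 32851 windows of this length was 6 CpG and 52.4% GC. TTCCCGC was found in *Smc1b*, where it begins 48 bases before the start, and among the mitotic genes in *Stag1*. Of all windows 3.82% held it. CACGTG was found among the members in *Stag3* alone, beginning 170 bases before the start, against 6.02% of all windows. TCTCGCGA was found in *Smc1b* and *Stag3* and in 0.858% of all windows. It was added to the search after the sequences had been read. In *Smc1b* the match extends to a palindrome, so that 2 matches on opposite strands overlap. CCAAT occurred 3 times in *Rec8*, once each in *Smc1b*, *Stag3*, *Smc1a* and *Stag1* and in 1 of the 2 windows of *Sgol2a*, and not in the *Rad21l* and *Smc3* windows, against 33.8% of all windows with a match. CNCCTCAG, a motif known for STRA8, was in none of the members' windows and in 6.42% of all windows. A window was found for 8 of the 10 members.

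Each sample held between 27144796 and 36941755 counts on transcripts. The targeted gene *Morc2b* had 428, 443, 24 and 1272 counts in the samples labelled wild type 1, 2, 3 and 4, and 10, 10, 115 and 2 counts in the samples labelled *Morc2b*-/- 1, 2, 3 and 4. The sample labelled wild type 3 was thus below the one labelled *Morc2b*-/- 3. The counts do not separate exon 2 from the exon that the mutant allele retains. Summed CPM of 8 markers of leptotene and zygotene spermatocytes, all of them detected, was 1803 to 3389.7 in wild type and 1609 to 3338 in *Morc2b*-/- testes. *Hormad1* and *Syce2* added little to it, at 2.56 CPM or less. The sum of 8 spermatogonia markers, of which *Gfra1* and *Kit* were at or near 0, was 285 to 391 and 274 to 362. The sum of 8 Sertoli cell markers, of which *Gata4* was near 0, was 6932 to 7969 and 7609 to 8499.8. Most of it was *Clu*, at 5493 to 6400 CPM in wild type and 6057 to 6790 CPM in *Morc2b*-/- testes. Spermatid markers summed to 152 CPM in the sample labelled wild type 1 and 304 CPM in the one labelled *Morc2b*-/- 3, against 37.7 or less elsewhere. Epididymal markers summed to 249.7 CPM in the sample labelled wild type 1 and to 13.9 or less elsewhere. Nearly all of that sum in wild type 1 came from *Spink8* (118 CPM), *Crisp1* (84.4 CPM) and *Ces5a* (46.5 CPM). *Defb20* and *Adam7* were at 0.327 CPM each in that sample. Pachytene spermatocyte markers summed to 120 to 423.5 CPM in wild type and 122 to 259 CPM in *Morc2b*-/- testes. Leydig cell markers summed to 119 to 593 and 123 to 650 CPM, and macrophage markers to 151 to 202 and 146 to 192 CPM. Peritubular myoid cell markers summed to 1694 CPM in the sample labelled wild type 1 and to 999.4 or less elsewhere. In these lists *Ccna1*, *Insl3*, *Cd163*, *Myh11*, *Lcn8*, *Lcn9* and *Rnase10* were at or near 0, and *Hspa2* was at 0.723 CPM or less. The part of these differences in the results was not tested.

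Meiotic and mitotic cohesin transcripts were both abundant, and none of the 10 genes differed between the genotypes beyond the spread between samples. In edgeR's quasi-likelihood test 0 of the 10 members passed an adjusted p of 0.05. The same held for 0 of 13507 genes tested (0%). The targeted gene *Morc2b* was thus not called either, at a log2 fold change of -4.09 (SE 1.21, unadjusted p = 0.0079 and adjusted p = 0.9998 in edgeR). The absence of a call therefore does not show the absence of a change. At an unadjusted p under 0.05 there were 0 members, against 249 genes or 1.84% of those tested, while DESeq2 gave 262 genes at an unadjusted p under 0.05 and called 1 gene, which was not a member. The genotypes overlapped in CPM for all 10 members, whereas 1.29% of the genes tested did not overlap. The median log2 fold change in *Morc2b*-/- testes was 0.0043 for the meiotic and 0.01 for the mitotic subunits, and 0.0022 over all genes tested. Of the samples numbered 3, the wild type one had fewer *Morc2b* counts (24) than the *Morc2b*-/- one (115). Without both of them, the 10 log2 fold changes ranged from -0.10 (*Sgol2a*) to 0.18 (*Rad21l*), each with the direction it had with all samples. In whole testes, fewer cells of a type and less RNA per cell cannot be told apart.

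**Figure D1:**
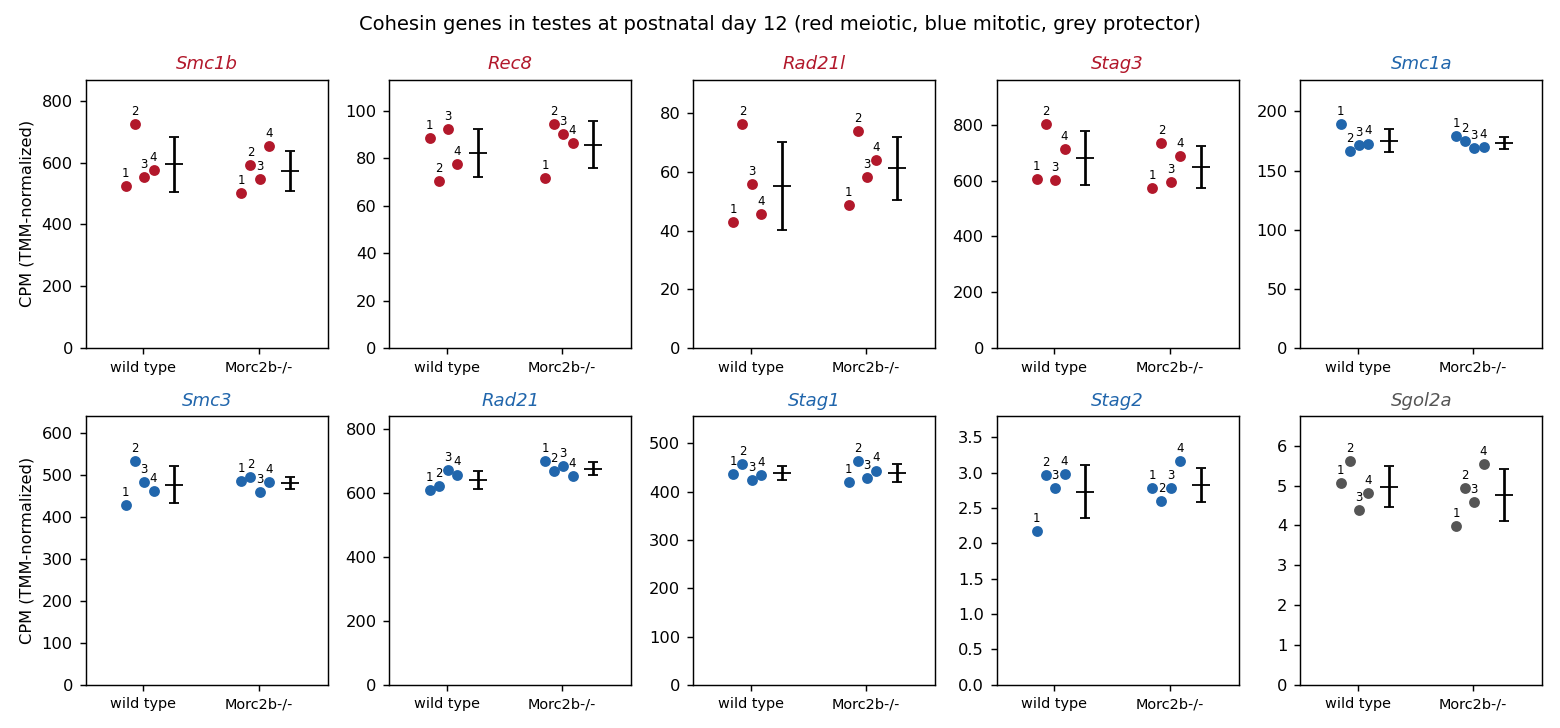
CPM (TMM-normalized, y axis from 0) of the 10 cohesin genes in each sample, by genotype. Points are samples marked with their replicate number, and bars give mean ± SD (n = 4). The genotypes overlap in every panel, and the 4 meiotic genes (red) scatter more than *Smc1a*, *Rad21* and *Stag1* (blue).

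Among the meiotic subunits, *Smc1b*, the meiotic SMC arm (chromosome 15, 84895121 to 84962387, NCBIM37, minus strand), stood at 525, 723, 553 and 576 CPM in wild type samples 1, 2, 3 and 4. In *Morc2b*-/- samples 1, 2, 3 and 4 it stood at 501, 593, 547 and 653 CPM. Wild type 2 was highest, *Morc2b*-/- 4 came next and *Morc2b*-/- 1 was lowest, so that the genotypes overlapped. The means were 594 ± 88.5 and 573 ± 65.2 CPM (SD, n = 4). Its log2 fold change was -0.05 (SE 0.11, 95% interval -0.31 to 0.21, edgeR adjusted p = 0.9998), which bounds the ratio of *Morc2b*-/- to wild type between 0.807 and 1.15. A two-sided exact permutation of the genotypes gave p = 0.743 for *Smc1b*.

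*Stag3*, the meiotic STAG protein (chromosome 5, 138721468 to 138753621, NCBIM37, plus strand), was at 604, 801, 602 and 713 CPM in the wild type and at 574, 734, 596 and 688 CPM in the *Morc2b*-/- samples, numbers 1, 2, 3 and 4 of each. In both genotypes the samples numbered 2 and 4 were above those numbered 1 and 3. The labels state nothing that these numbers share. The means were 679.8 ± 95.9 and 648 ± 75.8 CPM (SD, n = 4). The log2 fold change was -0.07 (SE 0.11, 95% interval -0.32 to 0.19, edgeR adjusted p = 0.9998), a ratio between 0.798 and 1.14.

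*Rec8*, the kleisin whose cleavage frees the chromosomes at the meiotic divisions (chromosome 14, 56236874 to 56244232, NCBIM37, plus strand), had 88.6, 70.3, 92.2 and 77.4 CPM in wild type 1, 2, 3 and 4. It had 71.7, 94.2, 90.4 and 86.3 CPM in the corresponding *Morc2b*-/- samples. Its order of samples was unlike that of *Stag3*: wild type 2, highest for *Smc1b* and *Stag3*, was lowest for *Rec8*. The log2 fold change was 0.06 (SE 0.11, 95% interval -0.19 to 0.31, edgeR adjusted p = 0.9998).

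*Rad21l*, a kleisin of meiotic prophase (chromosome 2, 151471140 to 151494269, NCBIM37, minus strand), had the widest scatter of the members. It was at 43.0, 76.1, 55.9 and 45.8 CPM in wild type and at 48.6, 73.8, 58.1 and 64.1 CPM in *Morc2b*-/- samples 1, 2, 3 and 4. The samples numbered 2 were highest in each genotype, and the highest sample was 77.1% above the lowest. The log2 fold change of 0.15 had an SE of 0.19 and a 95% interval of -0.28 to 0.58 (edgeR adjusted p = 0.9998), so a ratio as high as 1.49 lies within it. The value moved with single samples. It was 0.35 without wild type 2 and 0.24 without *Morc2b*-/- 1, but 0.05 without wild type 1 or without *Morc2b*-/- 2 and 0.07 without wild type 4.

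The mitotic subunits were measured with less spread. *Smc1a*, the SMC arm of mitotic cells (chromosome X, 148450971 to 148497237, NCBIM37, plus strand), was at 167 to 189 CPM in wild type and at 169 to 179 CPM in *Morc2b*-/- testes, and its log2 fold change was -0.02 (SE 0.05, 95% interval -0.14 to 0.10). *Smc3*, the arm shared by mitotic and meiotic rings (chromosome 19, 53674886 to 53720323, NCBIM37, plus strand), was at 428 to 532 and at 459 to 494 CPM, with a log2 fold change of 0.01 (SE 0.07, 95% interval -0.14 to 0.17). *Stag1*, a STAG protein of mitotic cells (chromosome 9, 100498217 to 100858964, NCBIM37, plus strand), was at 424 to 458 and at 420.4 to 463 CPM. Its log2 fold change was 0.0030 (SE 0.05, 95% interval -0.11 to 0.12). All had an adjusted p of 0.9998 in edgeR's quasi-likelihood test. For these 3 genes the intervals bound the ratio of the genotypes between 0.906 and 1.12.

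*Rad21*, the mitotic kleisin (chromosome 15, 51794151 to 51823306, NCBIM37, minus strand), had the smallest unadjusted p of the members. It was at 612, 622, 672 and 659 CPM in wild type 1, 2, 3 and 4 and at 701, 669, 685 and 654 CPM in the *Morc2b*-/- samples in the same order. Wild type 1 and 2 were below every *Morc2b*-/- sample, while wild type 3 and 4 lay within their range. The means were 641 ± 28.7 and 677 ± 20.1 CPM (SD, n = 4). The log2 fold change was 0.08 (SE 0.05, 95% interval -0.03 to 0.19, unadjusted p = 0.151 and adjusted p = 0.9998 in edgeR), and a two-sided exact permutation of the genotypes gave p = 0.143.

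**Figure D2:**
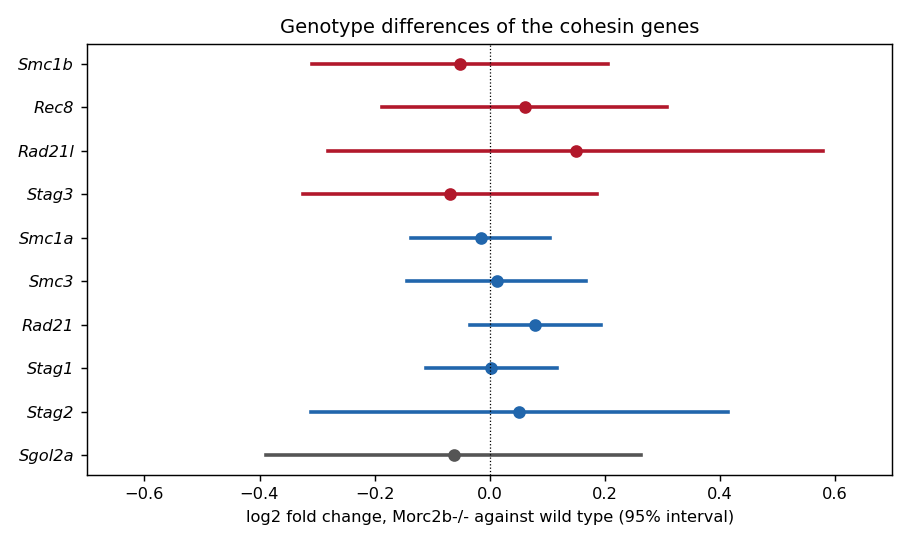
Log2 fold change of *Morc2b*-/- against wild type testes (x axis) with its 95% interval for each cohesin gene, from edgeR's fit across all genes (4 samples per genotype). Red marks meiotic, blue mitotic and grey the protector gene. All 10 intervals include 0, and the narrowest belong to *Smc1a*, *Rad21* and *Stag1*.

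*Stag2* and *Sgol2a* were measured from few reads. *Stag2*, the other mitotic STAG protein (chromosome X, 39502494 to 39630362, NCBIM37, plus strand), is listed under 3 transcripts, and reads shared by them had been set aside as ambiguous. It kept 2.18 to 2.99 CPM in wild type and 2.60 to 3.16 CPM in *Morc2b*-/- testes, for a log2 fold change of 0.05 (SE 0.16, 95% interval -0.31 to 0.41). Its transcript with the most counts alone gave -0.14. *Sgol2a*, which shields REC8 from cleavage at the first meiotic division (chromosome 1, 58052815 to 58082743, NCBIM37, plus strand), is listed under 2 transcripts. It also overlaps *Kctd18* on the opposite strand, and the strand setting of the counting is not given in the sources used here. It kept 4.39 to 5.61 and 3.98 to 5.54 CPM, and its log2 fold change was -0.06 (SE 0.14, 95% interval -0.39 to 0.26). The counting error of the lowest sample was 11.3% for *Stag2* and 9.02% for *Sgol2a*, against 0.768% to 2.62% for the other 8 genes. The levels of *Stag2* and *Sgol2a* are therefore not comparable with those of the other members.

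Levels were compared between the 8 genes listed under 1 transcript as CPM per kb of the longest coding transcript in the GENCODE annotation of NCBIM37. In wild type, *Rad21* was highest at 178 ± 7.95, followed by *Stag3* at 161 ± 22.8, *Smc1b* at 147 ± 21.9, *Smc3* at 98.1 ± 9.03 and *Stag1* at 70.8 ± 2.31 CPM per kb (SD, n = 4). *Rec8* at 37.6 ± 4.61, *Smc1a* at 37.3 ± 2.06 and *Rad21l* at 33.4 ± 9.10 CPM per kb were lowest. The first 3 genes overlapped with their neighbours in this order across samples, and so did the last 3. *Smc1b*, *Smc3*, *Stag1* and *Rec8* did not overlap with each other in any of the 8 samples. Per kb of coding length instead, *Rad21* stood alone at 336 CPM per kb, and *Smc3* overlapped with both *Smc1b* and *Stag1*. The annotated *Rad21l* transcript has 1650 bases, of which 1647 are coding.

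**Figure D3:**
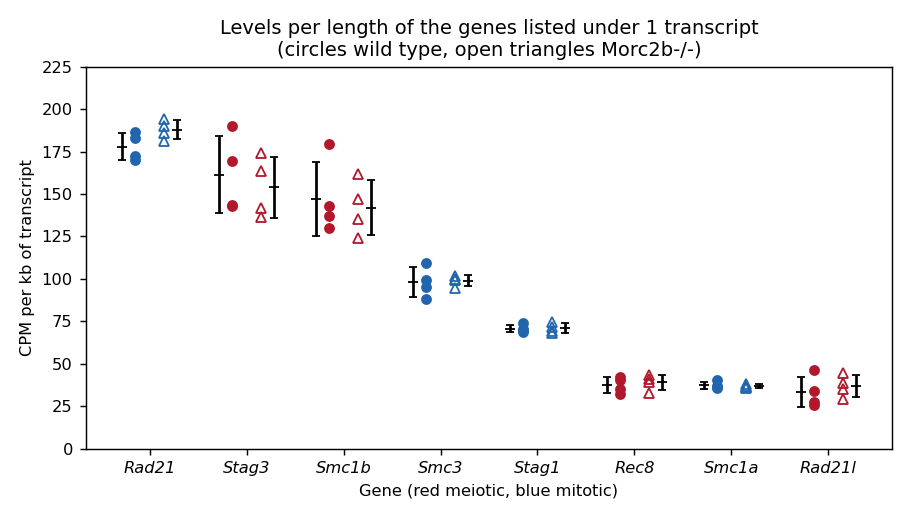
CPM per kb of transcript (y axis from 0) of the 8 cohesin genes listed under 1 transcript, ordered by their wild type mean. Circles are wild type and open triangles *Morc2b*-/- samples, and bars give mean ± SD (n = 4). *Rad21*, *Stag3* and *Smc1b* form the upper group, and *Rec8*, *Smc1a* and *Rad21l* lie together below 50 CPM per kb.

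Within each protein family, the meiotic form made up a different share of the transcripts per kb. Of the SMC1 pair, *Smc1b* made up 79.5% ± 2.94 in wild type and 79.2% ± 2.20 in *Morc2b*-/- testes (SD, n = 4). *Stag3* made up 69.3% ± 2.39 and 68.3% ± 1.62 of *Stag3* and *Stag1* together. *Stag2* was left out, since reads shared by its 3 transcripts had been set aside. The share of *Stag3* in the whole STAG family was therefore not obtained, and with *Stag2* it could only be lower. Among the kleisins, unlike in the SMC1 pair, the mitotic *Rad21* held the larger part, at 71.5% ± 2.28 and 71.2% ± 3.34. *Rec8* accounted for 15.1% ± 1.9 and 14.8% ± 1.37, and *Rad21l* for 13.4% ± 3.43 and 14% ± 2.12. With coding length these wild type shares were 76.8% for *Smc1b*, 61.0% for *Stag3* and 80.8% for *Rad21*. A whole testis also holds somatic cells and spermatogonia, which transcribe the mitotic forms, so the shares are not those of a spermatocyte.

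To compare meiotic with mitotic subunits directly, the log2 ratio of their CPM was taken within each sample, in which the scaling of the library cancels. *Smc1b* over *Smc1a* was 1.47, 2.12, 1.69 and 1.74 in wild type 1, 2, 3 and 4 and 1.48, 1.76, 1.69 and 1.95 in *Morc2b*-/- 1, 2, 3 and 4. The samples numbered 1 were lowest in both genotypes, and the genotypes overlapped. *Rec8* over *Rad21* averaged -2.97 ± 0.17 in wild type and -2.99 ± 0.20 in *Morc2b*-/- testes (SD, n = 4). *Rad21l* over *Rad21* averaged -3.57 ± 0.38 and -3.48 ± 0.29. *Stag3* over *Stag1* averaged 0.62 ± 0.16 and 0.56 ± 0.11.

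None of the 5 ratios differed between the genotypes beyond the spread of the samples. The difference, *Morc2b*-/- minus wild type on the log2 scale, was -0.03 for *Smc1b*/*Smc1a* (95% interval -0.44 to 0.37), -0.02 for *Rec8*/*Rad21* (-0.34 to 0.31) and 0.09 for *Rad21l*/*Rad21* (-0.50 to 0.67). It was -0.07 for *Stag3*/*Stag1* (-0.31 to 0.17) and -0.12 for *Stag3*/*Stag2* (-0.45 to 0.20). Exact two-sided permutation p-values ranged from 0.371 to 0.943, and each was 0.943 after Benjamini-Hochberg adjustment over the 5 ratios. The smallest p that 4 against 4 samples allow is 0.0286. After the adjustment over 5 ratios, 1 ratio alone could therefore not have passed 0.05, whatever its difference. *Stag3*/*Stag2* rests on the few reads kept for *Stag2*, and its difference was 0.06 when only the *Stag2* transcript with the most counts was used.

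**Figure D4:**
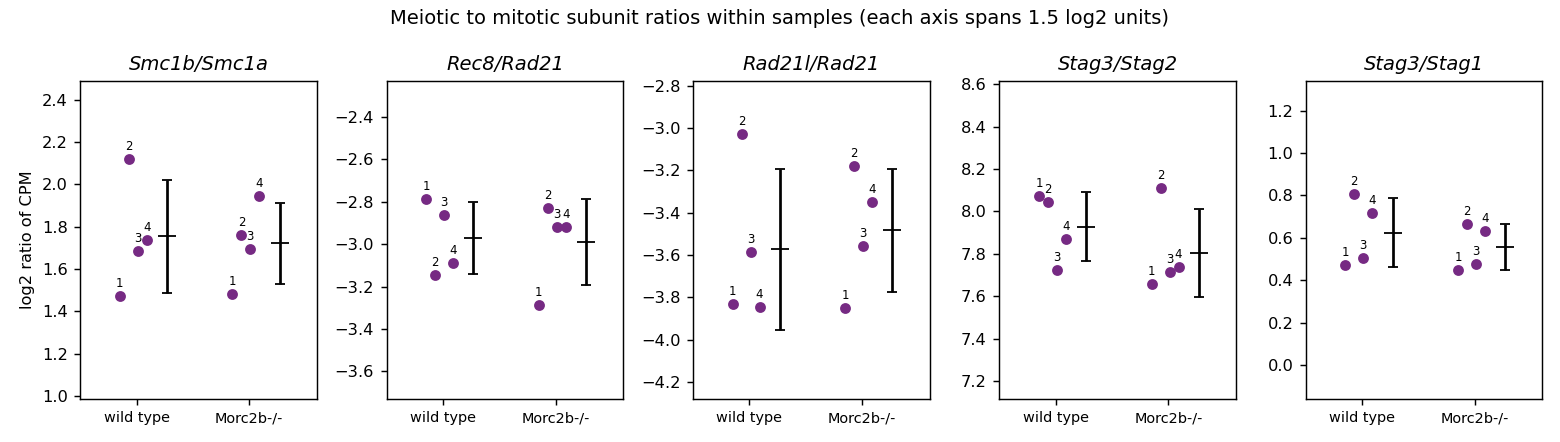
Log2 ratio of the CPM of a meiotic subunit to that of its mitotic counterpart (y axis, 1.5 log2 units in each panel) in each sample, by genotype. Points are samples marked with their replicate number, and bars give mean ± SD (n = 4). The genotypes overlap in all 5 panels.

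The meiotic subunits varied more between samples of 1 genotype than the mitotic subunits did. The within-genotype SD of log2 CPM was 0.18 for *Smc1b*, *Rec8* and *Stag3* and 0.32 for *Rad21l*. It was 0.06 for *Smc1a*, 0.05 for *Rad21* and *Stag1* and 0.10 for *Smc3*. *Stag2* and *Sgol2a*, with their larger counting error, were both at 0.17. In wild type alone the 4 meiotic genes ranged from 0.18 to 0.37 and these 4 mitotic genes from 0.05 to 0.13. In *Morc2b*-/- testes alone the ranges were 0.16 to 0.25 and 0.04 to 0.06. Among the 4691 genes tested with a mean of at least 50 CPM, the median SD was 0.11. Over all 13507 genes tested the median SD was 0.19, near which *Rec8*, *Smc1b* and *Stag3* lay, at percentiles 45.3, 47.8 and 47.8. *Rad21l* was at percentile 72.8, and *Rad21* and *Stag1* were at 3.81. No test was made of the difference between the classes, and the markers of leptotene and zygotene cells differed between samples as given above.

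The samples in which the meiotic genes were high were not the same for each gene. As deviations from the mean of the 8 samples on the log2 scale, *Smc1b* and *Stag3* were highest in wild type 2, at 0.32 and 0.28, and lowest in *Morc2b*-/- 1, at -0.21 and -0.20. *Rad21l* was also highest in wild type 2, at 0.42, but lowest in wild type 1, at -0.41, and it reached -0.32 in wild type 4, where *Stag3* was at 0.11. *Rec8* was at -0.25 in wild type 2 and at 0.18 in *Morc2b*-/- 2. Over the 8 samples, *Smc1b* was most like *Stag3* (Pearson r 0.88) and *Sgol2a* (0.84), then *Rad21l* (0.76), and unlike *Rec8* (-0.24). Some pairs of a meiotic with a mitotic gene were as alike, with 0.87 for *Stag3* and *Stag1*, 0.80 for *Rad21l* and *Smc3* and 0.75 for *Smc1b* and *Stag1*. Other such pairs were unlike, with -0.69 for *Rad21l* and *Smc1a*, -0.68 for *Smc1b* and *Smc1a* and -0.47 for *Smc1b* and *Rad21*. These values describe likeness over 8 samples of both genotypes that share their scaling, and no test was attached to them.

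**Figure D5:**
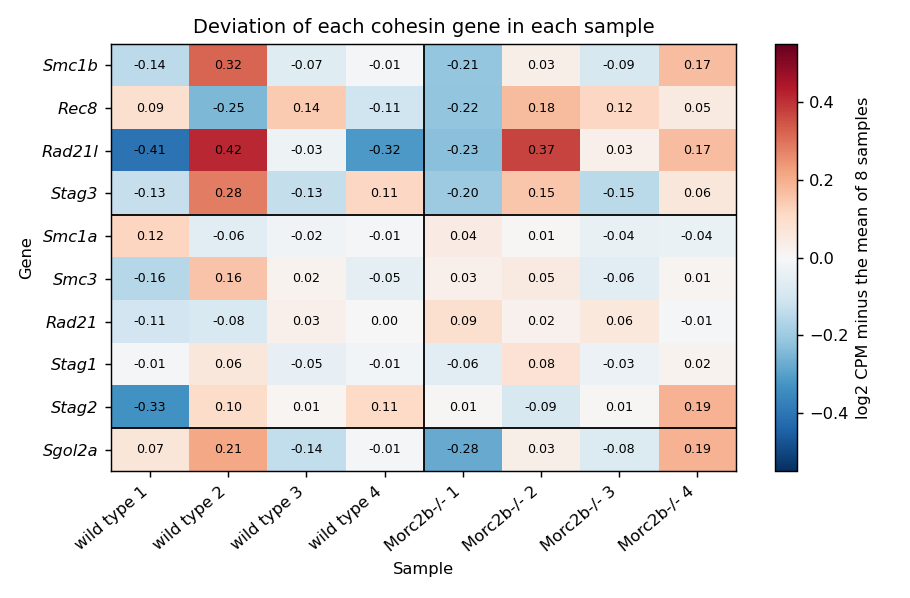
Log2 CPM of each cohesin gene (rows) in each sample (columns), as deviation from its mean over the 8 samples, printed in each cell and shown in colour (red above, blue below the mean). Black lines separate the genotypes and the meiotic, mitotic and protector genes. *Smc1b*, *Rad21l* and *Stag3* are high in wild type 2, where *Rec8* is low, and the rows of *Smc1a*, *Rad21* and *Stag1* stay within 0.12 of 0.

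Factors that load, release and protect cohesin were examined as a list of 25 genes, of which 20 passed the filter on low counts. Of these, 0 rose and 0 fell at an adjusted p of 0.05, against 0% of all genes tested. An unadjusted p under 0.05 was reached by 0 of them, against 1.84% of all genes tested. The median log2 fold change was 0.0088, and 15 of the 20 genes lay within 0.1 of 0 on the log2 scale. *Meikin*, a kinetochore gene that protects centromeric cohesion in meiosis, had the largest difference, with 4.06, 4.69, 1.61 and 8.71 CPM in wild type and 0.905, 4.00, 2.18 and 5.23 CPM in *Morc2b*-/- samples 1, 2, 3 and 4. The genotypes overlapped, and its log2 fold change was -0.63 (SE 0.58, edgeR adjusted p = 0.9998). *Pttg1*, which encodes securin, the inhibitor of separase, had a log2 fold change of -0.46 (SE 0.30). *Hdac8*, the deacetylase that recycles SMC3, had 0.24 (SE 0.15), and the loader *Nipbl* had 0.16 (SE 0.25). The last 3 genes are each listed under 2 transcripts and kept at most 5.12 CPM. *Mau2*, *Wapl*, *Aurkc*, *Bub1* and *Ddx11* were not tested. Each of these 5 is listed under more than 1 transcript and kept at most 12 counts in a sample. The part of reads set aside as ambiguous in these low counts was not tested.

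Condensin and the SMC5/6 complex, the other SMC complexes of the cell, were examined as a list of 14 genes, of which 12 were tested. Again 0 rose, 0 fell and 0 had an unadjusted p under 0.05, against 0% called and 1.84% under 0.05 over all genes tested. The median log2 fold change was -0.0049. *Smc4*, the condensin arm, was at 523, 599, 438 and 734 CPM in wild type and at 422, 524, 434 and 661 CPM in *Morc2b*-/- samples 1, 2, 3 and 4. The samples numbered 2 and 4 were above those numbered 1 and 3 in both genotypes, as for *Stag3*, and the log2 fold change was -0.17 (SE 0.18). The other largest differences were -0.21 (SE 0.18) for *Smc5*, which is listed under 3 transcripts, -0.09 (SE 0.06) for the condensin kleisin *Ncaph* and -0.07 (SE 0.05) for *Ncapd2*. *Smc2* and *Ncaph2* were not tested either, since each kept at most 3 counts in a sample under more than 1 listed transcript.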

How the data were processed

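RNA-seq of 8 whole-testis samples was analysed. The authors made stranded mRNA libraries, trimmed adapters, aligned the reads with Tophat (build NCBI37/mm9) and deposited 1 table of raw counts on RefSeq transcripts per sample. Which program counted the reads, with which strand setting and annotation release, is not given in the sources used here. Reads on more than 1 listed transcript were tallied as ambiguous (26.8% to 28.8% of unique reads), and the 5 tally lines were left out. Of 35819 transcripts, 35522 matched a symbol by accession, and the rest (0.484% of counts) stayed separate. Counts were summed per symbol. CPM is the count scaled to the TMM-adjusted library size. The genotype test was that of edgeR 4.0.16, run in R 4.3.3 (TMM, filterByExpr, quasi-likelihood test, genotype only, Benjamini-Hochberg over 13507 genes). All 10 members passed the filter. Log2 CPM used a prior count of 2. Exact permutation tests used all 70 assignments of genotypes. Intervals of genes are 95% intervals from the fit, with an SE derived from the log2 fold change and the F statistic. Intervals of the ratios are 95% intervals from the SDs of the samples and a t distribution. Coordinates are from GENCODE on NCBIM37 and upstream sequences from RefSeq on GRCm38.p6. The procedure was tested on simulated data, drawn independently for each sample. Such data do not show how small a difference could be found in the present samples.

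The members and lists were chosen with earlier results of these data known. Named besides the members were the 4 genes of each list with the largest change and the 5 genes most like each class, of which 1 is not reported here. Alternatives were RLE scaling, DESeq2 1.42.0, limma-voom (limma 3.58.1), 2 other filters, the replicate number as a block, 1 transcript per gene, a prior count of 0.5, and leaving out samples. Figures were drawn with matplotlib 3.10.9. No samples matched within sampling noise (chi-square per degree of freedom 5.67 or more).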

Additional observations from a re-analysis of the deposited data

How the results depend on the processing

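No member, neither list and none of the 5 ratios passed the threshold under any alternative tried, and the cause of the following differences was not tested. For the ratios, the replicate block allows no p below 0.125, so that setting could not have passed. Leaving out 1 sample of each genotype allows no ratio a p under 0.05 either. Across all genes, DESeq2 called 1 gene and every other setting 0. Genes at an unadjusted p under 0.05, 249 in the analysis reported, numbered 422 without a low-count filter, 572 with the replicate number as a block, 204 to 504 with 1 sample left out and 421 without both samples numbered 3. The last setting, and the one without wild type 1 and *Morc2b*-/- 3, were chosen after seeing the data. Differences near 0 changed sign. *Stag1* had -0.00048 with RLE, -0.00041 with DESeq2 and -0.0035 with at least 10 counts in every sample, and *Stag2* had -0.14 with 1 transcript per gene. Without wild type 1 and *Morc2b*-/- 3, *Smc1a* had 0.030, *Smc3* -0.019, *Stag2* -0.040 and *Rec8*/*Rad21* 0.020. *Stag3*/*Stag2* had 0.057 with 1 transcript per gene. With 1 sample left out, the log2 fold change ranged from -0.12 to 0.058 for *Smc1b*, -0.0047 to 0.14 for *Rec8*, 0.046 to 0.35 for *Rad21l*, -0.13 to 0.021 for *Stag3*, -0.037 to 0.023 for *Smc1a*, -0.036 to 0.072 for *Smc3*, 0.06 to 0.10 for *Rad21*, -0.024 to 0.027 for *Stag1*, -0.043 to 0.10 for *Stag2* and -0.14 to 0.012 for *Sgol2a*. The ratio differences ranged from -0.13 to 0.088 for *Smc1b*/*Smc1a*, -0.076 to 0.081 for *Rec8*/*Rad21*, -0.012 to 0.27 for *Rad21l*/*Rad21*, -0.22 to -0.07 for *Stag3*/*Stag2* and -0.12 to -0.0079 for *Stag3*/*Stag1*. Same-numbered samples of the genotypes deviated together with r of -0.32 to 0.45 and different-numbered ones with -0.50 to 0.61, and 4 of 8 samples were most like the one of their own number, so the numbers were not taken as pairs. The replicate block changed no call. Counting error was largest for *Stag2* and *Sgol2a*.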

Other observations

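Among the genes outside the members that followed the mean deviation of the 4 meiotic subunits most closely over the 8 samples were *Zswim9* (Pearson r 0.97), *Atpaf2* (0.97), *Tex10* (0.97) and *Fam72a* (0.97). The genes most like the mean of the 5 mitotic subunits were *AA465934* (0.97), *Abraxas2* (0.97), *R3hcc1l* (0.95), *Rps23* (0.94) and *Mis12* (0.93). For each of the latter the sample labelled wild type 1 was lowest, as it was for the mean of the mitotic subunits, at -0.10. In that mean *Stag2*, with its few reads, was at -0.33, whereas *Smc1a* was at its highest there, at 0.12. All these genes were picked from 13507 for their likeness, so the values of r carry no test.

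*Smc1a* and *Smc3*, which pair in the mitotic ring, lay farthest apart in the samples labelled wild type 1, where *Smc1a* was at 0.12 and *Smc3* at -0.16, and wild type 2, where they were at -0.06 and 0.16. In the remaining samples both stayed within 0.06 of 0. *Sgol2a* was like *Smc1b* (0.84) and unlike *Rad21* (-0.77). With 8 samples and few reads for *Sgol2a*, these are descriptions, chosen after the values were seen.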
